A study of Sus scrofa with 18 samples.

Results

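The 5 genes NCALD, VNN1, RAB26, CLIP4 and DIRAS3 were bright in the pig endometrium on gestational day (GD) 15 and dim on GD26, and were followed over breed and day. They were chosen by that fall, so the fall itself is given as a description without a test. On the Affymetrix porcine GeneChip, 8 of the 24123 probe sets carry the symbol of 1 of the 5 genes, 4 of them for NCALD and 1 for each of the others. All 8 are among the 9320 probe sets, controls left out, that exceeded an intensity of 100 on 6 or more of the 18 arrays. All but that of RAB26, which was also above 100 on all 6 GD50 arrays, passed this filter only through GD15. Passing it is thus no evidence about the genes.

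The endometrium came from pregnant gilts of the Meishan and Yorkshire breeds, mated to boars of their own breed and slaughtered on GD15, GD26 or GD50, without any further treatment. GD15 lies within the period in which the conceptus attaches to the uterus, GD26 at its end, and GD50 at mid-gestation. Each of the 6 groups has 3 arrays, and each array held a pool of RNA from matching conceptus sites in the same 2 gilts. The p-values therefore reflect how far pools of sites differ, not how far animals differ, and a difference between breeds or days cannot be told apart from a difference between 2 pairs of gilts. Values are intensities, the antilog of the deposited log2 values. An intensity under 100 is called not detected, and where arrays of the dimmer group lay there a fold is given as a lower bound (at least) with 100 in place of their values. Unless stated otherwise, a p-value beside such a bound comes from the fit to the deposited values.

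The pig conceptus does not invade the uterus but attaches to the luminal epithelium, and the glands of the endometrium secrete the proteins that feed it. Secretion runs through vesicles that RAB GTPases guide to the cell surface, and RAB26 is a member of this family known from secretory granules. NCALD encodes neurocalcin delta, a calcium sensor of the neuronal calcium sensor family. VNN1 encodes vanin 1, an enzyme on the cell surface that splits pantetheine, a breakdown product of coenzyme A, into the vitamin pantothenate and cysteamine. CLIP4 belongs to the proteins with a CAP-Gly domain, which binds the ends of microtubules, and DIRAS3 is a RAS-like GTPase that restrains growth and is imprinted in humans.

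Most of the probe sets stayed under 100 on GD50 as well, and RAB26 was the exception. On GD26 all 8 probe sets were under 100 on all 6 arrays. On GD50 the probe sets of VNN1, CLIP4 and DIRAS3 and 2 of NCALD were still under 100 on all 6 arrays, 2 of NCALD crossed 100 on single arrays, and RAB26 was above 100 on all 6. The name of genes lost after attachment thus holds to GD50 for VNN1, CLIP4 and DIRAS3, in part for NCALD, and not for RAB26.

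**Figure D1:**
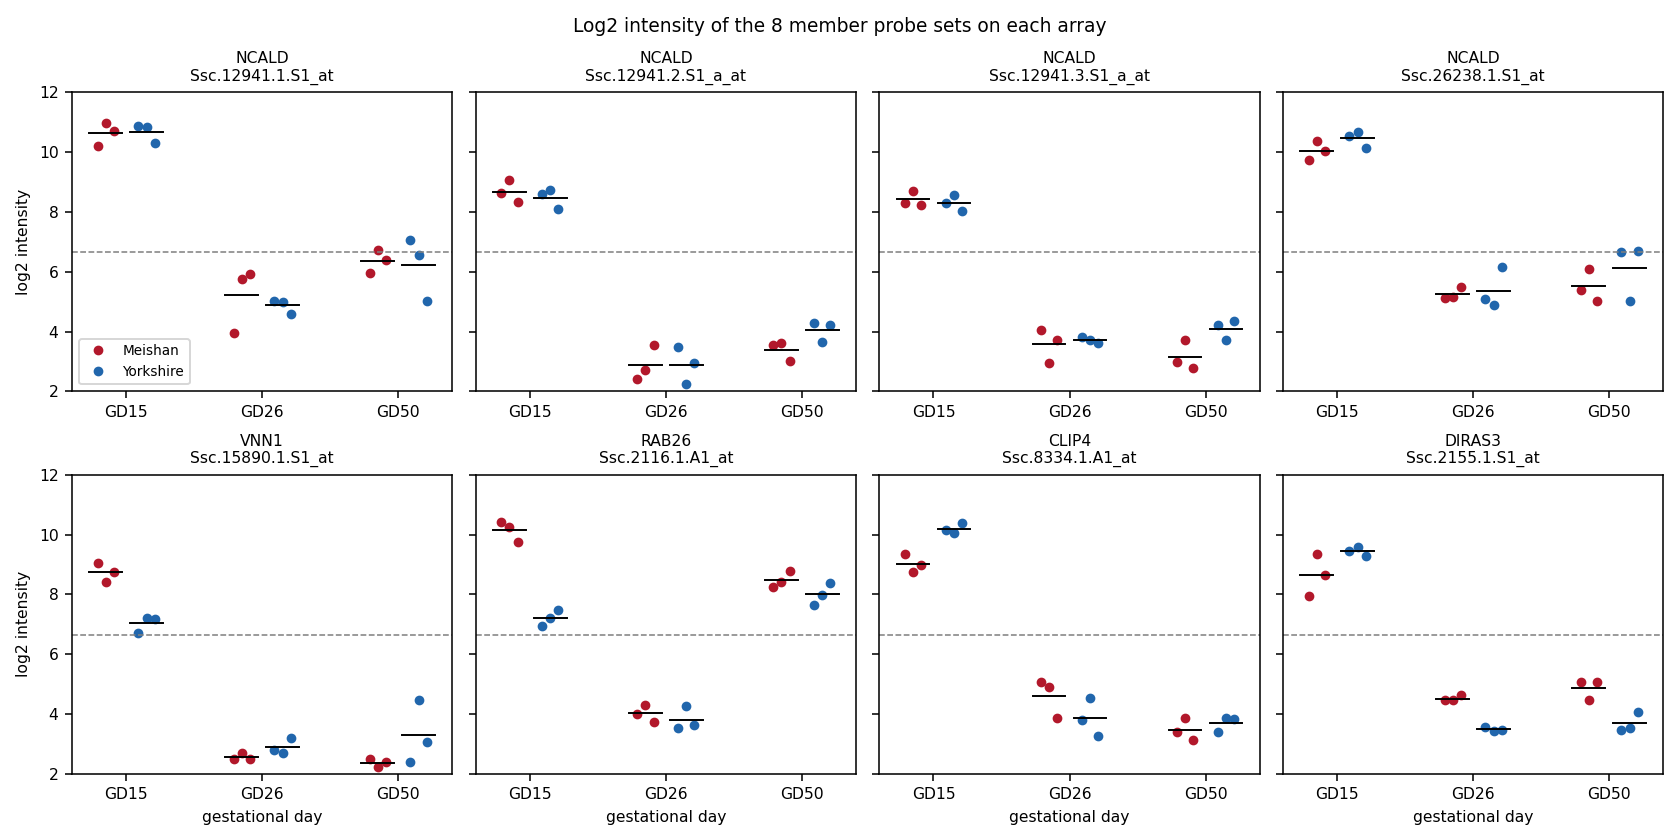
Log2 intensity (vertical axis) of the 8 probe sets on GD15, GD26 and GD50 (horizontal axis), with a dot for each of the 3 arrays of a group, Meishan in red and Yorkshire in blue, black bars for the group means and a dashed line at an intensity of 100. On GD26 all dots lie under the line, and on GD50 RAB26 is the only panel with all 6 dots above it.

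RAB26 was higher in Meishan than in Yorkshire on GD15, was not detected on GD26, and was detected again in both breeds on GD50. In Meishan its intensity was 1361, 1218 and 865 on the 3 arrays of GD15, 16.2, 19.8 and 13.2 on GD26, and 307, 342 and 439 on GD50. In Yorkshire it was 124, 149 and 179 on GD15, 11.5, 19.1 and 12.4 on GD26, and 202, 253 and 333 on GD50. The highest Yorkshire array of GD15 lay far under the lowest Meishan array, whereas on GD50 the arrays of the breeds overlapped. The fall from GD15 to GD26 was at least 11.3-fold in Meishan and at least 1.49-fold in Yorkshire, where the GD15 level was already close to the limit.

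From GD26 to GD50, RAB26 rose at least 3.59-fold in Meishan and at least 2.57-fold in Yorkshire, higher on all 3 arrays in each breed. On the deposited values the limma adjusted p was 0.00033 in Meishan and 0.000448 in Yorkshire. With values under 100 set to 100, the limma adjusted p was 0.00376 in Meishan and 0.0149 in Yorkshire. Of all probe sets tested, 7.83% were called higher at this step in Meishan and 5.92% in Yorkshire. The GD26 arrays that had shown the fall also entered this step, and the GD50 arrays did not take part in the choice of the genes. The GD50 level was 31.8% of the GD15 level in Meishan and 173% of it in Yorkshire. In Meishan each GD50 array was under each GD15 array, and in Yorkshire each GD50 array was above each GD15 array. The share of all probe sets that separate in this way was not counted, so this is a description.

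The breed difference of RAB26 changed with the day. Yorkshire minus Meishan was −2.92 ± 0.26 log2 (± standard error) on GD15, a 7.57-fold lower level in Yorkshire (limma adjusted p = 1.09e-05), and −0.48 ± 0.26 on GD50 (adjusted p = 0.125). The difference on GD50 minus that on GD15 was 2.44 ± 0.36 (limma adjusted p = 0.000348). This last comparison was added after the values were seen, and 9.31% of all probe sets were called higher in it. The GD26 and GD50 arrays of Yorkshire were dimmer as a whole, with a median breed difference of −0.46 log2 over all probe sets past the filter on GD50 and −0.02 on GD15, which is about the size of the RAB26 difference on GD50. After cyclic loess normalization the RAB26 difference on GD50 was −0.015.

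A fall below 100 on GD26 followed by a return was rare among the probe sets with such a fall. Of all probe sets, 252 were at or above 100 on all 6 GD15 arrays and under 100 on all 6 GD26 arrays, all 8 probe sets described here among them. On GD50, 181 of the 252 (71.8%) were under 100 on all 6 arrays, 67 were mixed, and 4 (1.59%) were at or above 100 on all 6. Among the 4, RAB26 is the only one with a gene symbol.

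NCALD was detected on all GD15 arrays by each of its 4 probe sets, with no breed difference past the test on that day. On the probe set Ssc.12941.1.S1_at, Meishan had 1175, 2024 and 1676 on GD15, 15.6, 54.0 and 60.6 on GD26, and 62.4, 106 and 84.4 on GD50. Yorkshire had 1894, 1812 and 1257 on GD15, 32.3, 31.9 and 24.3 on GD26, and 133, 94.7 and 32.3 on GD50. The breeds overlapped on each day, and 1 array of each breed returned above 100 on GD50.

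The NCALD probe set Ssc.26238.1.S1_at, had 844, 1336 and 1048 in Meishan and 1483, 1643 and 1136 in Yorkshire on GD15. On GD26 it had 34.4, 35.9 and 45.1 in Meishan and 34.0, 29.3 and 70.7 in Yorkshire. On GD50 it had 42.1, 68.7 and 32.7 in Meishan and 101, 32.7 and 104 in Yorkshire, so that 2 Yorkshire arrays were just above the limit. The other probe sets, Ssc.12941.2.S1_a_at and Ssc.12941.3.S1_a_at, had GD15 values from 262 to 534 and later values of 4.69 to 19.4 and 6.88 to 20.3.

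The probe sets of NCALD gave like courses, with Pearson r from 0.927 to 0.982 over the 18 arrays. Their falls from GD15 to GD26 were at least 15.9-fold in Meishan and 16.3-fold in Yorkshire for Ssc.12941.1.S1_at, and at least 10.6-fold and 14.0-fold for Ssc.26238.1.S1_at. The other probe sets allow lower bounds of 3.15-fold to 4.08-fold. These bounds follow the GD15 level of each probe set and do not rank the falls.

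From GD26 to GD50, the NCALD probe set Ssc.12941.1.S1_at differed by 1.15 ± 0.55 log2 in Meishan (limma adjusted p = 0.206) and 1.34 ± 0.51 in Yorkshire (adjusted p = 0.134), higher on GD50 in each breed, which did not pass the test. Without the dimmest Yorkshire GD50 array, replicate 3, the Yorkshire value was 1.94 and passed it (adjusted p = 0.0117). These differences rest mostly on values under 100. With such values set to 100 and all arrays kept, they were 0.03 in Meishan (limma adjusted p = 0.988) and 0.14 in Yorkshire (limma adjusted p = 0.753). Ssc.26238.1.S1_at differed by 0.76 ± 0.54 in Yorkshire (adjusted p = 0.391). Against GD15, the GD50 level of Ssc.12941.1.S1_at was still at least 15.5-fold lower in Meishan and at least 14.8-fold lower in Yorkshire.

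Although NCALD is named for neurons, markers of neurons were not detected. All 5 neuronal markers on the array (SNAP25, SYT1, STMN2, NEFL and GAP43) failed the filter, and on GD15 their mean intensities ran from 4.53 to 8.27 in the 2 breeds.

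VNN1 was brighter in Meishan than in Yorkshire on GD15. Its intensity was 527, 340 and 434 in Meishan and 104, 149 and 144 in Yorkshire, so the breeds did not overlap and the Yorkshire arrays were just above the limit. On the 12 later arrays it was 4.65 to 22.0. The fall to GD26 was at least 4.27-fold in Meishan and at least 1.31-fold in Yorkshire, the smallest bound of the 8 probe sets.

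CLIP4 ran the other way, with 650.0, 431 and 504 in Meishan and 1127, 1071 and 1345 in Yorkshire on GD15, again without overlap. On the 12 later arrays it was 8.77 to 33.3. The fall to GD26 was at least 5.21-fold in Meishan and at least 11.8-fold in Yorkshire.

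DIRAS3 had 244, 660 and 400 in Meishan and 700, 763 and 624 in Yorkshire on GD15. The breeds overlapped because 1 Meishan array, replicate 2, reached the Yorkshire values. On the 12 later arrays it was 10.8 to 33.6. The fall to GD26 was at least 4.01-fold in Meishan and at least 6.93-fold in Yorkshire.

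Between the breeds on GD15, RAB26 and VNN1 were lower and CLIP4 was higher in Yorkshire, and the probe sets of NCALD and DIRAS3 did not pass the test. Over all probe sets, 5.24% were called lower and 5.25% higher in Yorkshire on that day. How many of all probe sets had no overlap between the breeds was not counted. VNN1 was 3.27-fold lower (−1.71 ± 0.38 log2, limma adjusted p = 0.0109), and without the dimmest Yorkshire array, replicate 1, its adjusted p was 0.0505. CLIP4 was 2.26-fold higher (1.17 ± 0.34, limma adjusted p = 0.0467). This call of CLIP4 is fragile, since leaving out any 1 of the 6 GD15 arrays ended it, with adjusted p from 0.0563 to 0.149 and a difference of 1.04 to 1.33. With values under 100 set to 100, the limma adjusted p was 2.55e-05 for CLIP4, 5.66e-06 for VNN1 and 0.0545 for DIRAS3. In that setting all GD26 and GD50 arrays of these genes stood at 100 and added no spread to the fit. DIRAS3 differed by 0.79 ± 0.29 (adjusted p = 0.107), and by 1.15 (adjusted p = 0.0114) without Meishan replicate 2. The NCALD probe sets differed by −0.19 to 0.41, with adjusted p of 0.689 to 0.986. The GD15 arrays entered the choice of the genes, so these breed differences are not independent of it.

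On GD26 no gene could be compared between the breeds, since all arrays were under 100. On GD50, 3 probe sets had an array above 100, and none of the 3 passed the test (limma, 0 at an unadjusted p under 0.05), with 46.1% of all probe sets called lower and 11.1% higher in Yorkshire. The NCALD probe sets differed by −0.15 ± 0.54 (adjusted p = 0.82) and 0.62 ± 0.44 (adjusted p = 0.246). Without Yorkshire GD50 replicate 2, the dim array of Ssc.26238.1.S1_at, the latter was 1.17 and passed the test (adjusted p = 0.0217). With values under 100 set to 100 and all arrays kept, the latter was 0.023 (limma adjusted p = 0.94).

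**Figure D2:**
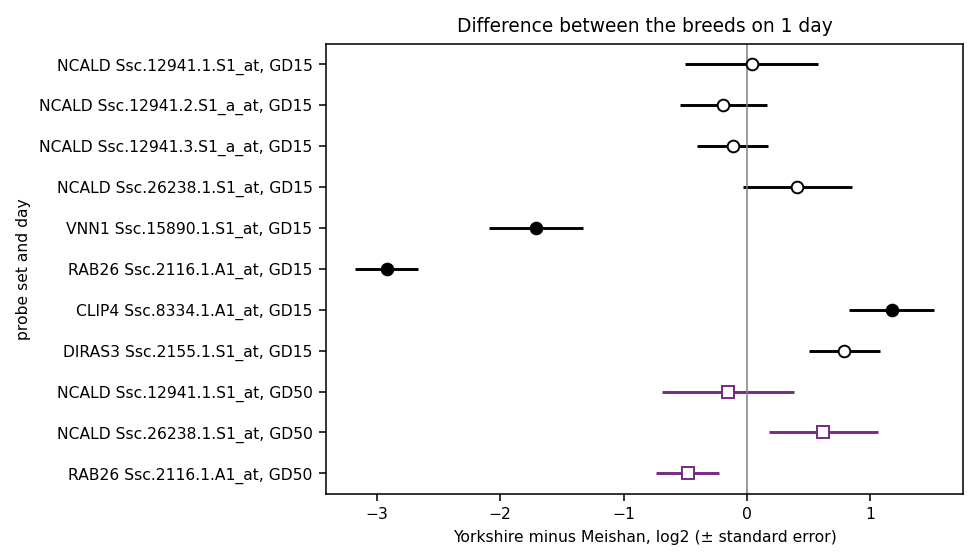
Yorkshire minus Meishan difference in log2 intensity (horizontal axis) with its standard error for the 8 probe sets on GD15 (black circles) and the 3 that could be compared on GD50 (purple squares), filled where the adjusted p was under 0.05. RAB26 is at −2.92 on GD15 and −0.48 on GD50, VNN1 at −1.71 and CLIP4 at 1.17.

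By the size of the fitted fall among the 9320 probe sets, the order of the genes differed between the breeds. VNN1 ranked 8 and RAB26 ranked 10 in Meishan, against 107 and 200 in Yorkshire. CLIP4 ranked 13 and DIRAS3 ranked 18 in Yorkshire, against 38 and 47 in Meishan. The probe sets of NCALD ranked 14 to 28 in Meishan and 23 to 72 in Yorkshire. These ranks rest on the values that chose the genes and on intensities below the limit, and they are given as a description.

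The genes most like each of the 5 over the 18 arrays were found by Pearson r of the log2 values. The arrays share gilts within a group and most of the correlation comes from the step after GD15, so r is a description. For RAB26 they were VWA5A (0.897), the fucosyltransferase FUT1 (0.894) and the semaphorin receptor PLXNB1 (0.889). For VNN1 they were CYP26A1, an enzyme that breaks down retinoic acid (0.980), LOC100517803 (0.972) and FTL, the light chain of ferritin (0.965).

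IGF1, a growth factor of the uterus, was among the 3 most like genes of CLIP4 (0.972) and of 3 of the 4 NCALD probe sets (0.970 to 0.988). The others of CLIP4 were TRAF3IP2 and the nucleoside transporter SLC28A3 (0.972 each). For DIRAS3 they were MXI1, an antagonist of MYC (0.984), the growth factor MDK (0.979) and LOC100526084 (0.979). For NCALD they further included JOSD1 (0.970), the serine synthesis enzyme PSAT1 (0.962 and 0.971), the glutamine transporter SLC38A1 (0.960 and 0.967), CBR2 (0.974), LDHB (0.968), MTCH1 (0.964) and WLS (0.970). RAB26 correlated with the other probe sets at 0.402 to 0.648, and the others with each other at 0.888 to 0.982.

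Genes related to the 5 by family, pathway, function or imprinting, called relatives here, showed no common fall from GD15 to GD26. Over all probe sets, 26.7% were called lower and 23.3% higher in Meishan, and 43.6% lower and 20.6% higher in Yorkshire, with a median change of −0.06 log2 in Meishan and −0.47 in Yorkshire. Over 6 lists of relatives, the 5 genes left out, 22 genes rose and 13 fell in Meishan, and 15 rose and 18 fell in Yorkshire. The Yorkshire split depended on the scaling, with 21 that rose and 12 that fell after each array was centred on its median, and 20 and 16 after quantile normalization. Changes of single relatives below are GD26 minus GD15 in log2, Meishan first.

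Of 13 measured genes of secretory RABs and granules, 5 rose and 4 fell in Meishan, and 3 rose and 4 fell in Yorkshire, with median changes of 0.01 and −0.35. RAB27B, which works in granule release, fell by 1.69 in Meishan (limma adjusted p = 0.000166) and at least 4.59-fold in Yorkshire (adjusted p = 9.76e-05). RAB14, a RAB of the Golgi and endosomes, rose by 0.88 (adjusted p = 0.0029) and 1.70 (adjusted p = 0.00253). RAB11A, of recycling endosomes, rose by 0.65 (adjusted p = 0.00186) and 0.88 (adjusted p = 0.000876). RAB3IP, an exchange factor of RAB GTPases, rose by 1.12 in Meishan (adjusted p = 0.000542) and had 0.66 in Yorkshire (adjusted p = 0.111).

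At the step from GD26 to GD50, where RAB26 returned, 2 of the 13 genes rose and 2 fell in Meishan, and 2 rose and 0 fell in Yorkshire. Over all probe sets, 7.83% were called higher and 9.7% lower in Meishan, and 5.92% higher and 7.85% lower in Yorkshire. RAB3D and VAMP8 rose in each breed, and they are named here after their values were seen. RAB3D, a RAB of secretory granules, rose by 0.88 ± 0.10 in Meishan (limma adjusted p = 0.00352) and 1.27 ± 0.09 in Yorkshire (adjusted p = 0.000621), to mean intensities of 965 in each breed. VAMP8, a protein of granule fusion, rose by 0.59 (adjusted p = 0.0481) and 0.50 (adjusted p = 0.0284). From GD15 to GD26, VAMP8 had fallen by 0.57 in Meishan (adjusted p = 0.023) and 0.52 in Yorkshire (adjusted p = 0.00531). Its mean intensity was 5356 on GD15 and 5415 on GD50 in Meishan, and 5975 and 5879 in Yorkshire. RAB3D had fallen by 0.52 in Yorkshire (adjusted p = 0.00215) and not in Meishan (adjusted p = 0.963). RAB27B did not return, with a mean intensity of 48.5 in Meishan and 51.1 in Yorkshire on GD50.

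**Figure D3:**
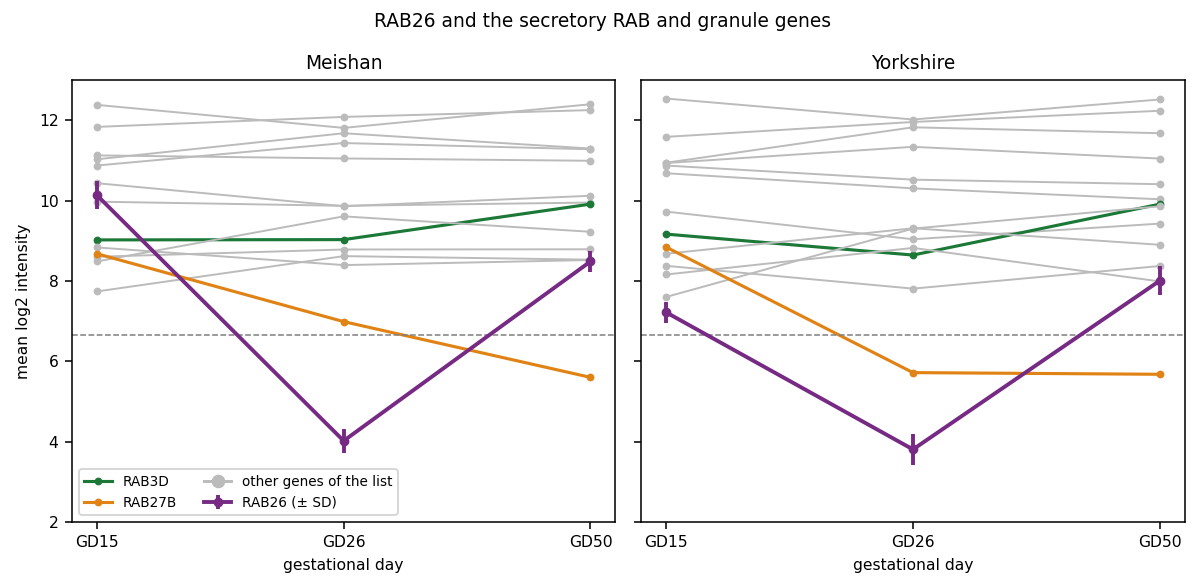
Mean log2 intensity (vertical axis) of RAB26 (purple, with the SD of 3 arrays) and the 13 measured genes of secretory RABs and granules on GD15, GD26 and GD50 in Meishan and Yorkshire, with a dashed line at an intensity of 100. RAB26 drops under the line on GD26 and is above it on GD50, RAB3D (green) reaches a mean of 965 on GD50, and RAB27B (orange) is under the line on GD50.

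Of 12 measured genes of vanins and coenzyme A, 4 rose and 5 fell in Meishan, and 0 rose and 6 fell in Yorkshire, with medians of −0.20 and −0.65. VNN2, a vanin that lies next but one to VNN1 in the gene order of the Sscrofa11.1 annotation, fell by 2.07 in Meishan (limma adjusted p = 0.00346) and at least 14.8-fold in Yorkshire (adjusted p = 0.000349), where 2 of the 3 GD26 arrays were under 100, from a mean intensity of 1807 to 430 in Meishan and from 1520.1 to 92.1 in Yorkshire. CDO1, which oxidizes cysteine, fell by 2.07 (adjusted p = 0.00475) and fell by 4.45 (adjusted p = 0.00109). ACSL3, which joins fatty acids to coenzyme A, fell by 1.34 (adjusted p = 0.00159) and fell by 2.05 (adjusted p = 0.00154). ENPP1, a phosphodiesterase of the cell surface, rose by 1.87 in Meishan (adjusted p = 0.000233) and had −0.46 in Yorkshire (adjusted p = 0.166).

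Of 4 measured calcium sensor relatives of NCALD (CALM2, CALM3, CALML4 and CIB1), 0 rose and 1 fell in each breed, with medians of −0.05 and −0.30. HPCAL1, VSNL1, KCNIP1, KCNIP2 and KCNIP4 of the same list did not pass the filter, so their courses are not known. The 1 that fell was CALML4, a calmodulin-like protein, by 1.63 in Meishan (limma adjusted p = 0.000292) and at least 2.72-fold in Yorkshire (adjusted p = 0.00487), where 1 GD26 array was under 100.

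Of 10 measured genes of CAP-Gly proteins and microtubule ends, 4 rose and 1 fell in Meishan, and 4 rose and 4 fell in Yorkshire, with medians of 0.15 and −0.04. CKAP4, which ties the endoplasmic reticulum to microtubules, rose by 2.32 (limma adjusted p = 2.12e-05) and 2.33 (adjusted p = 2.52e-05). TUBB, a beta tubulin, rose by 0.63 (adjusted p = 0.00506) and 1.84 (adjusted p = 4.12e-05). STMN1, which destabilizes microtubules, fell by 1.27 (adjusted p = 0.00327) and fell by 1.36 (adjusted p = 0.000902). DST, a linker of the cytoskeleton, had 0.14 in Meishan (adjusted p = 0.723) and fell by 1.35 in Yorkshire (adjusted p = 0.00701).

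Of 7 measured RAS-like GTPases, 3 rose and 1 fell in Meishan, and 2 rose and 1 fell in Yorkshire, with medians of 0.42 and 0.09. RERG, which like DIRAS3 restrains growth, did not pass the test in Meishan (limma adjusted p = 0.143) and fell at least 3.16-fold in Yorkshire (adjusted p = 5.03e-05). RALA rose by 0.88 (adjusted p = 0.00226) and 0.49 (adjusted p = 0.0279). RAP1B rose by 0.75 in Meishan (adjusted p = 0.000269) and had 0.09 in Yorkshire (adjusted p = 0.473), and RAP2B rose at least 1.57-fold in Meishan (adjusted p = 0.00883), where 1 GD15 array was under 100, and had 0.21 in Yorkshire (adjusted p = 0.484).

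Of 10 measured genes imprinted in mammals, 6 rose and 1 fell in Meishan, and 6 rose and 2 fell in Yorkshire, with medians of 0.76 and 0.65. PEG10, needed for the placenta, passed the test as higher in Meishan (limma adjusted p = 0.00566) and Yorkshire (adjusted p = 0.00533), but no fold is given, since its 3 GD15 arrays in each breed were under 100, as were 1 GD26 array of Meishan and 2 of Yorkshire. The fetal growth factor IGF2 did not pass the test in Meishan (adjusted p = 0.152) and rose at least 13.3-fold in Yorkshire (adjusted p = 0.000184), where 2 of the 3 GD15 arrays were under 100. NAP1L5 had 0.18 (adjusted p = 0.753) and rose by 2.39 in Yorkshire (adjusted p = 0.00799). INPP5F fell by 1.08 in Meishan (adjusted p = 0.0119) and at least 2.39-fold in Yorkshire (adjusted p = 0.0147), where 2 of the 3 GD26 arrays were under 100.

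**Figure D4:**
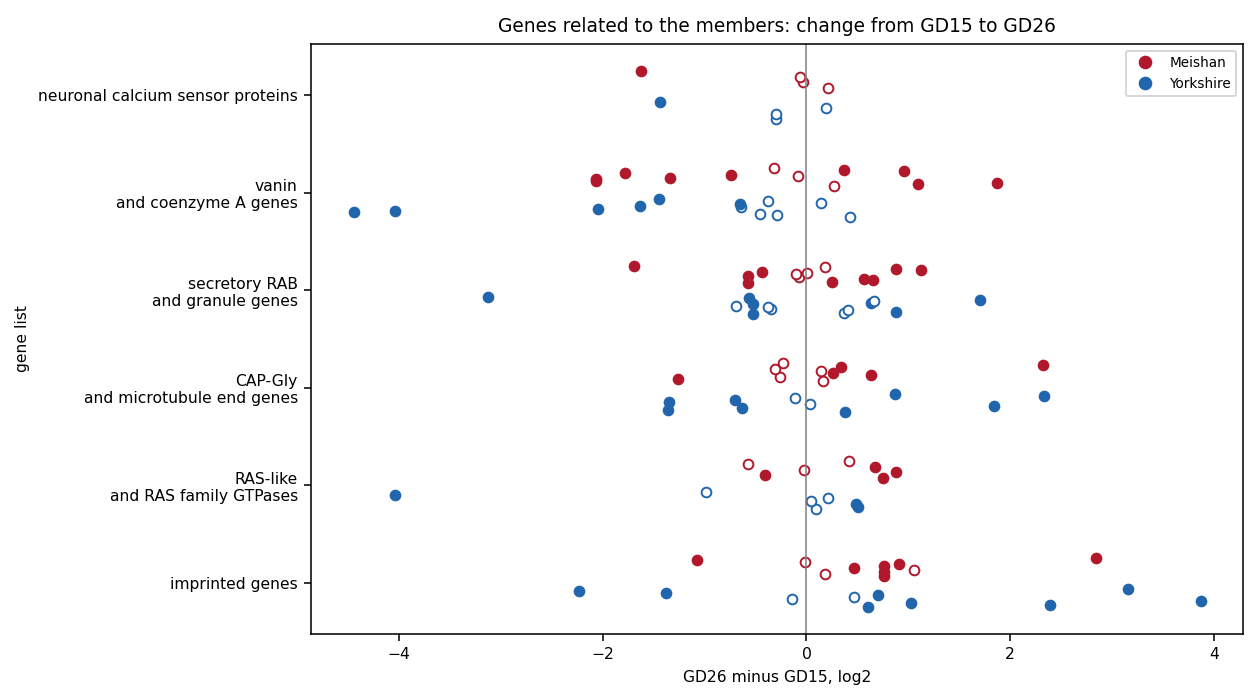
Change from GD15 to GD26 in log2 intensity (horizontal axis) of the measured genes of 6 lists of relatives (vertical axis), Meishan in red and Yorkshire in blue, filled where the adjusted p was under 0.05. Fitted values are plotted, also where arrays lay under an intensity of 100. Each list but the calcium sensors holds filled dots on both sides of 0 in Meishan, and the imprinted genes lie mostly to the right.

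The gene next to DIRAS3 in the same annotation, WLS, which carries WNT proteins to the cell surface, had mean intensities of 5617, 1145 and 1644 on GD15, GD26 and GD50 in Meishan and 5305, 1178 and 1957 in Yorkshire. GNG12, on the other side of DIRAS3, had 177, 310 and 369 in Meishan and 149, 198 and 394 in Yorkshire. Beyond GNG12, GADD45A had 2825, 1296 and 797 in Meishan and 2253, 450 and 448 in Yorkshire. SERBP1 had 6707, 4648 and 3698 in Meishan and 5953, 2769 and 2258 in Yorkshire. WLS, GADD45A and SERBP1 thus had lower means on GD26 than on GD15 in both breeds, and GNG12 higher ones. Near CLIP4, YPEL5 also had lower means on GD26. Near NCALD, YWHAZ had higher ones, and ZNF706 was lower in Yorkshire only. These changes were not tested. PKD1 and TSC2, the neighbours of RAB26 with a probe set, did not pass the filter.

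The tissue on the arrays changed between the days that define the genes. Of the 7 trophoblast markers on the array, 5 passed the filter (PLET1, PAG6, DPPA5, GATA3 and HSD3B1), all 5 at background on GD15 and higher on GD26 in both breeds. Their summed intensity was 26.2 to 29.0 on GD15, 38609 to 73226 on GD26 and 67930 to 84811 on GD50 in Meishan, and 73737 to 88502 and 45782 to 64175 in Yorkshire. All 6 epithelial markers passed the filter, with sums of 27919 to 30565, 27163 to 29682 and 23355 to 25677 over the days in Meishan, and 28156 to 30394, 22724 to 24507 and 20344 to 25467 in Yorkshire. These sums hide opposed members. From GD15 to GD26, 2 of the 6 were called higher and 2 lower in Meishan, and 1 higher and 4 lower in Yorkshire. KRT8 and KRT18 fell and KRT19 rose in both breeds. Of 4 stromal markers past the filter, 1 was called higher and 0 lower in Meishan, and 1 higher and 1 lower in Yorkshire. Of 3 endothelial markers, 1 was called higher and 0 lower in each breed. Of 2 smooth muscle markers, 1 was called higher in Meishan and 2 in Yorkshire. CD163, the 1 leukocyte marker past the filter, was called higher in both breeds. The part of the trophoblast signal in the fall and return of the 5 genes was not tested. In whole tissue, fewer cells of a type and less RNA per cell cannot be told apart.

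Of the 3 endometrial markers past the filter, 2 were called higher and 1 lower on GD26 than on GD15 in each breed. The secretory product SPP1 rose from 4871 to 40966 in Meishan (limma adjusted p = 0.0278) and from 6911 to 42953 in Yorkshire (adjusted p = 0.00138). ACP5 rose from 17790 to 33460 in Meishan (adjusted p = 0.0015) and from 21145 to 30383 in Yorkshire (adjusted p = 0.00175). SAL1, a lipocalin, fell from 1541 to 17.9 in Meishan and from 1777 to 11.0 in Yorkshire. The probe sets of the steroid receptors PGR and ESR1 did not pass the filter. The paper, which annotated probe sets from another source, counts ESR1 among genes with high GD15 expression in both breeds. The hybridization controls were brighter on the 6 GD26 and GD50 arrays of Yorkshire (12.88 ± 0.65 log2, SD) than on the other 12 (10.83 ± 0.44), and the array medians were lower there (7.78 to 8.13 against 8.31 to 8.40). The rise of RAB26 in Yorkshire from GD26 to GD50 lies within these 6 arrays.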

How the data were processed

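The authors hybridized pooled endometrial RNA to the Affymetrix porcine GeneChip and made the deposited log2 intensities with the Bioconductor packages Affy and GCRMA in R; the submitters' processing notes also name RMA, without versions. The raw intensity files were not used here. limma 3.58.1 in R 4.3.3 was fitted on all probe sets, within each breed for days and over the 6 groups for breeds, with Benjamini-Hochberg adjustment over the 9320 probe sets that exceeded an intensity of 100 on 6 or more arrays, and a call at an adjusted p under 0.05. The adjusted p of single genes is this one. A probe set was compared where at least 1 array of either group reached 100, and between breeds over days where at least 1 array of each group did. The fits were also run on simulated data with independent noise on each array. Those data held no shared gilts and no dimmer Yorkshire arrays, so they cannot show how the fits handle these features.

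Symbols came from the platform's annotation, updated by gene identifier: 10099 probe sets had 1 symbol, 198 several and 13826 none. The named genes are all probe sets of the 5 genes, for each the 3 genes with the highest r, and up to 4 genes per list of relatives with the largest change past the test in either breed, by the brightest probe set. The genes and lists were chosen with earlier results of these data known. The files name no genome build, so no coordinates are given, and a planned search of promoter sequences was not made. The number of arrays limits the precision. Same-numbered arrays of Meishan GD26 and GD50 deviated together (r = 0.13 to 0.328 for the 3 pairs). Over all pairs of groups checked, r ran from −0.348 to 0.328, and arrays of unlike number were not compared. Whether the replicate numbers pair arrays is thus not known, and gilts of different days are different animals. Plots were made in matplotlib 3.10.9 under Python 3.11.15. Alternatives were the order of fit and filter, other filters, scalings and floors, a mean-variance trend, the replicate block, 1 fit over the 6 groups and leaving out each array. Cyclic loess, a fit with array 1 as the only one of Yorkshire GD26, and the comparison of breed differences between days were added after seeing the data.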

Additional observations from a re-analysis of the deposited data

Results flagged for a closer look

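The mean of RAB26 was lower on GD50 than on GD15 in Meishan and higher in Yorkshire. Neither change was tested within its breed. The comparison of the changes was added after the values were seen, and the GD15 arrays entered the choice of the genes. The Yorkshire change minus the Meishan change was 2.44 ± 0.36 log2 (standard error), with a limma adjusted p of 0.000348 and 3 arrays per group. In the 22 alternatives it was 2.26 to 2.92, with adjusted p from 8.59e-05 to 0.00131. The groups of 3 arrays are too small for a check of single outlying arrays.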

How the results depend on the processing

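RAB26 kept its direction and its call in all alternatives of the rise from GD26 to GD50 (17 in Meishan, 18 in Yorkshire), of the GD15 breed difference (16) and of the change in that difference (22). Its breed difference on GD50 was −0.67 to −0.01 and was not called in any of 16. With single arrays left out, the number of probe sets called was 1 to 2 for GD50 against GD26 in Yorkshire, 2 without Yorkshire GD50 replicate 3 (NCALD). It was 1 to 3 between the breeds on GD15, 1 without Yorkshire GD15 replicate 1 (VNN1 and CLIP4 lost), and 0 to 1 on GD50, 1 without Yorkshire GD50 replicate 2 (NCALD). CLIP4 on GD15 was also lost without a filter (adjusted p = 0.0789) and after quantile normalization (adjusted p = 0.057). VNN1 did not pass a filter at an intensity of 200. The cause was not tested.

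Values that changed sign were all NCALD differences that did not pass the test. For Ssc.12941.1.S1_at between the breeds on GD50 they were 0.22 after quantile normalization, 0.26 after median centring, 0.11 with values under 100 set to 100 and 0.32 after cyclic loess, and for the change in the breed difference 0.15, 0.22, 0.069 and 0.28. With single arrays left out, the ranges of this probe set were −0.18 to 0.22 between the breeds on GD15, −0.58 to 0.45 on GD50 and −0.61 to 0.41 for the change, and on GD15 those of Ssc.12941.2.S1_a_at and Ssc.12941.3.S1_a_at were −0.36 to 0.0041 and −0.25 to 0.030.

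With the replicate block, RAB26 in Meishan kept its call from GD26 to GD50 (adjusted p = 0.00492), the number of member probe sets called was 1 in that step in each breed, 3 between the breeds on GD15 and 0 on GD50, and no count of calls moved by over 1.5 times. On GD26 no setting gave a breed comparison, as it was made only where an array reached 100. With 3 arrays of the same gilts per group, and most later values under the intensity limit, falls are lower bounds, and small differences on GD50 could not be measured.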
